A study of Mus musculus with 8 samples.

Results

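Ephrins, semaphorins, Slits and netrins are guidance cues that cells present or secrete, and Eph receptors, plexins with neuropilins, Robo receptors and Unc5 receptors read them. The genes of these cues and receptors were followed from mouse embryonic fibroblasts (MEFs) to induced pluripotent stem cells (iPSCs). Members are the rows of the deposited gene table whose symbol matches a name pattern for these families, and no expression value enters that pattern. This gave 67 rows out of 17922, which carry 66 symbols because Efna5 stands on 2 rows. Of the 67 rows, 36 belong to ligands and 31 to receptors. Robo4, Unc5d, Sema4e and Ntn2 have no row under these symbols, so they were not analysed here.

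The cells were of the C57BL/6 strain. MEFs were taken from fetuses at embryonic day 13.5, and carried tetO-OSKM, doxycycline-inducible copies of the reprogramming factors Pou5f1, Sox2, Klf4 and Myc. Cells at day 3 and day 6 came from such MEFs under 2 ug/ml doxycycline, in medium with 15% serum replacement, 1000 U/ml LIF, 3 uM of the GSK3 inhibitor CHIR99021 and N-2 supplement. The 4th group is fully reprogrammed iPSCs derived from MEFs. The sources used here do not state the medium of the MEFs before induction or of the iPSCs, the transactivator that drives tetO, or the number of iPSC clones. They describe no sorting of induced cells, so day 3 and day 6 are taken as bulk cultures, and MEFs and day 3 may differ in medium too. One long RNA library was made per group after removal of ribosomal RNA. With 1 library a group, no difference could be tested and no value carries a replicate error.

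As background, ephrins are bound to the membrane, ephrin-A by a lipid anchor and ephrin-B by a transmembrane segment, so that ephrin and Eph receptor meet at cell contacts and both cells can respond. Class 3 semaphorins are secreted and mostly act through a neuropilin joined to an A-type plexin, while classes 4 to 6 span the membrane and bind plexins directly, and class 7 is lipid-anchored. Slits bind Robo receptors, and netrins bind Dcc, neogenin and Unc5 receptors. These cues steer axons, vessels and neural crest cells, and many of them are made by embryonic mesenchyme.

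Values are FPKM, a level per gene length and library size, so levels of different genes can be set side by side. A member was called higher or lower when log2(FPKM + 1) differed by 1 or more, which is 2-fold in FPKM + 1, provided that the larger of both values reached 1 FPKM. The labels were checked against marker genes. In iPSCs all 6 fibroblast markers were lower and all 6 pluripotency markers higher than in MEFs, with summed levels of 195 and 1515 FPKM in iPSCs, against 6589 and 1.22 FPKM in MEFs. The 5 macrophage markers found summed to 67.3 in MEFs, 48.2 on day 3, 53.1 on day 6 and 12.7 FPKM in iPSCs. Most of this was Lyz2, at 52.9 FPKM in MEFs and 0.0298 in iPSCs. Csf1r was at 2.90 in MEFs and 0.793 FPKM in iPSCs. Emr1 and Ptprc, at 2.37 and 0.703 FPKM in MEFs, were listed at 0 in iPSCs. Cd68 went the other way, from 8.45 in MEFs to 11.9 FPKM in iPSCs, within the rule. Of endothelial markers, Cdh5 stayed at or under 0.202 FPKM in all 4 libraries, while Tek was at 0.262, 1.22, 2.06 and 2.45 FPKM and Pecam1 reached 26.2 FPKM in iPSCs. The 4 neuronal markers found summed to 5.67, 10.0, 19.1 and 12.9 FPKM over the stages, and the 6 of glia and neural crest to 18.4, 17.2, 8.11 and 5.39 FPKM. The part of such cells in the results was not tested. In bulk RNA, fewer cells of a type and less RNA per cell cannot be told apart.

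Of the 67 rows, 53 reached 1 FPKM in at least 1 library and 14 did not. The number at 1 FPKM or more was 44 in MEFs, 44 on day 3, 44 on day 6 and 40 in iPSCs. The 14 low rows were Epha5, Epha6, Epha8, Epha10, Ephb1, Sema3g, Sema6d, Plxna4, Plxnb3, Plxnc1, Slit1, Robo3, Ntn5 and Unc5a. Their highest values lay between 0.00814 FPKM (Epha5) and 0.651 FPKM (Epha10), both in iPSCs. The highest rows in iPSCs were Plxnb2 at 33.2 FPKM, Epha2 at 26.0 and Plxna1 at 17.6, and the highest in MEFs were Sema3c at 74.1 FPKM, Plxnb2 at 69.4 and Sema3a at 63.6.

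**Figure D1:**
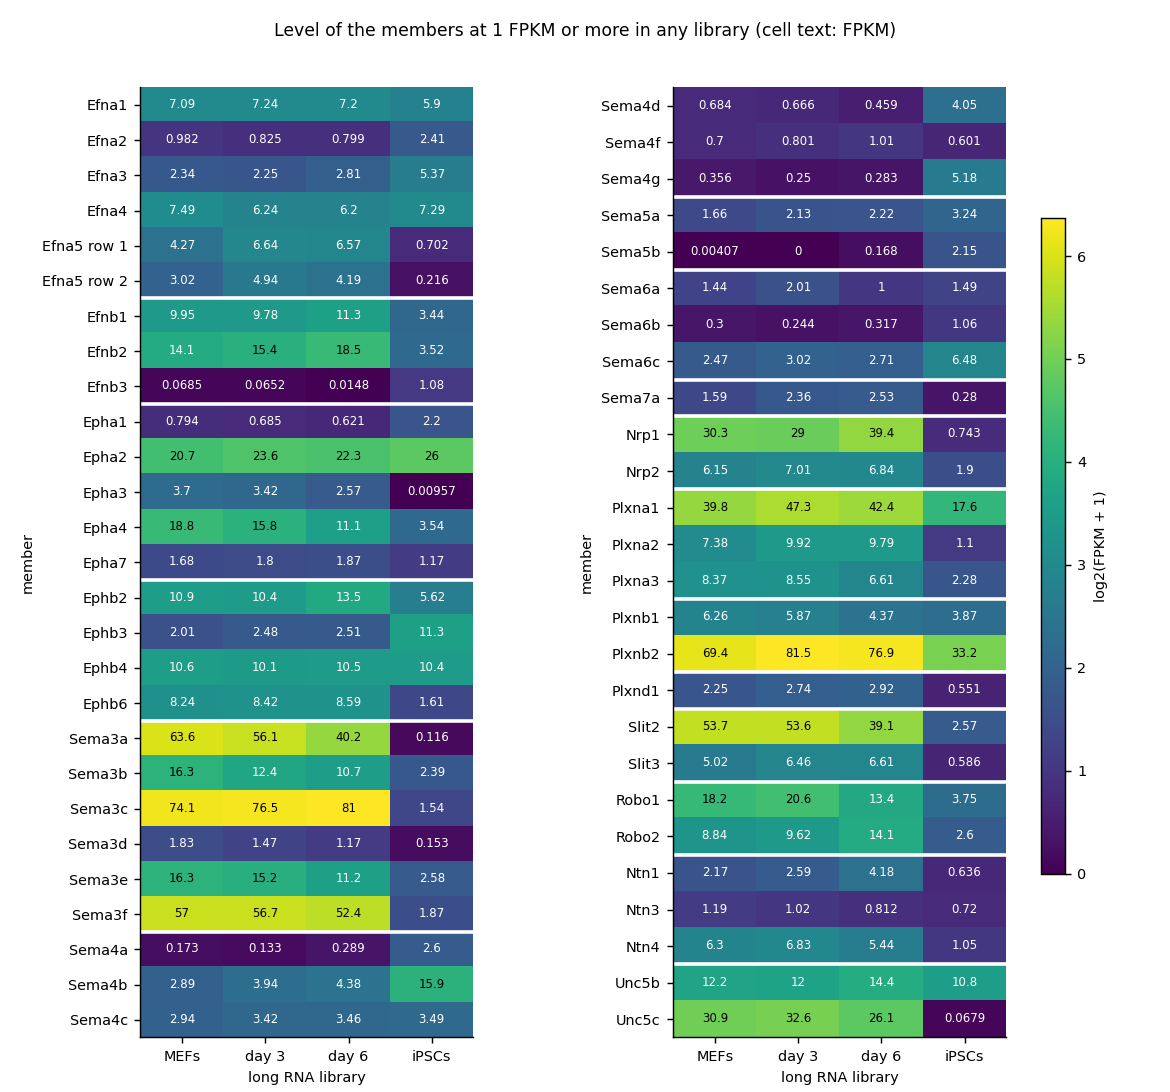
Level of the 53 member rows at 1 FPKM or more in any library, with families separated by white lines. Colour gives log2(FPKM + 1), the cell text gives FPKM, and columns are the 4 libraries. Class 3 semaphorins, Nrp1, Slit2 and Unc5c are bright in the first 3 columns and dark in iPSCs, while Sema4b and Ephb3 are brightest in iPSCs.

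No member compared was past the rule among MEFs, day 3 and day 6, and few rows of the whole table were. At day 3, 0 of 44 compared rows were past the rule against MEFs, beside 0.170% higher, 0.0511% lower and 0.221% in either direction of all 11740 rows compared. At day 6, 0 of 45 were past it against day 3, beside 0.457% higher, 0.398% lower and 0.855% in either direction of all rows. Against MEFs it was also 0 of 45, beside 0.770%, 0.584% and 1.35%. Between iPSCs and MEFs, 7 of the 52 rows compared were higher and 27 were lower in iPSCs, beside 21.1% higher, 25.0% lower and 46.0% in either direction of all 12937 rows. In percent, 13.5 of the members compared were higher and 51.9 lower. The median difference of the 52 rows was -1.03, beside -0.05 over all rows, and with the upper quartiles of the libraries made equal these were -0.91 and 0.13. Between iPSCs and day 6, 8 of 52 rows were higher and 28 lower in iPSCs, beside 20.4%, 23.4% and, in either direction, 43.8% of all rows. The iPSC comparisons with MEFs and with day 6 share the iPSC library.

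Counts are given for ligands and receptors apart, with no test between them. Of 31 ligand rows compared between iPSCs and MEFs, 6 were higher (19.4%) and 14 lower (45.2%) in iPSCs. Of 21 receptor rows compared, 1 was higher (4.76%) and 13 were lower (61.9%). Over all rows compared, 21.1% were higher and 25.0% lower. The share of higher ligands was thus near that of all rows. The higher members were the transmembrane semaphorins Sema4a, Sema4b, Sema4d, Sema4g, Sema5b and Sema6c and the receptor Ephb3. The 27 lower rows covered 26 symbols and lay in 14 of the 17 families, and members within the rule are named with their families.

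**Figure D2:**
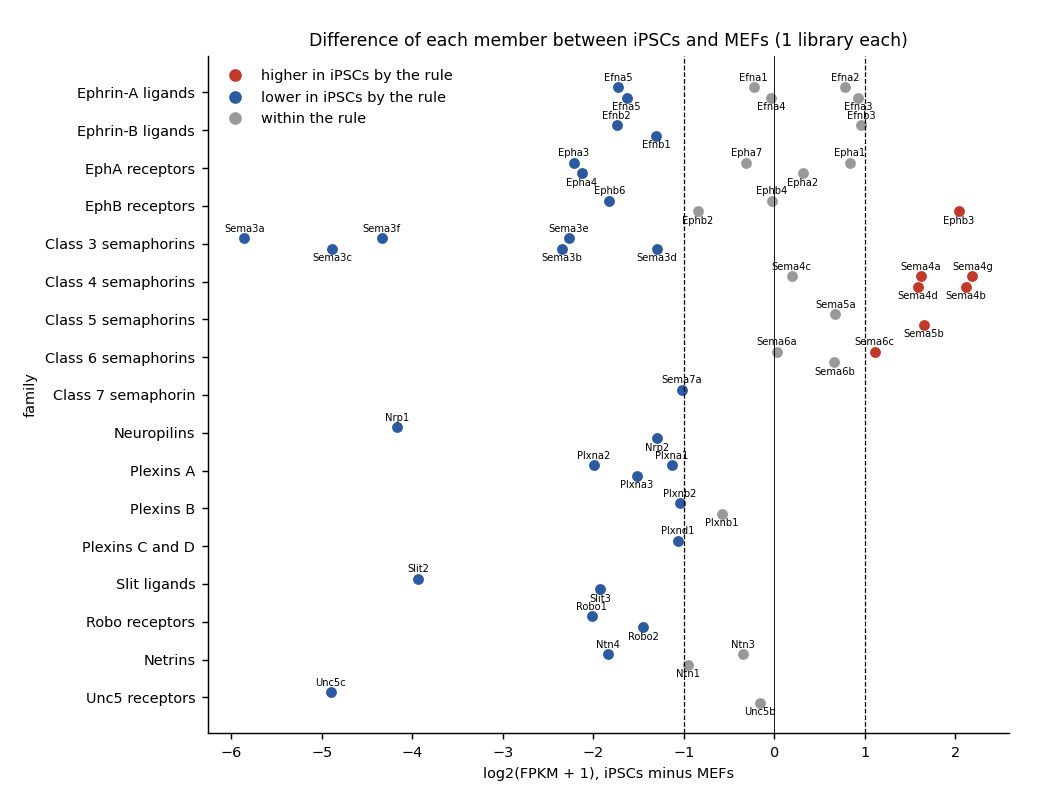
Difference in log2(FPKM + 1), iPSCs minus MEFs, for the 52 member rows at 1 FPKM or more in either library, by family. Each point is a row, and dashed lines mark the difference of 1 in each direction. The 6 class 3 semaphorins all lie left of -1, and the 7 red points are 6 transmembrane semaphorins and Ephb3.

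The start regions of 6 members are shown, semaphorins and EphB receptors that were past the rule in either direction. These were chosen by name, and other members past the rule are not shown. Windows run from 250 bases before to 50 after the annotated start, and come from RefSeq on GRCm38.p6, a later build than the mm9 named for the gene table. Capitals mark each CpG dinucleotide. Sema4g (chr19:44989094-44989393, plus strand) and Sema4d (chr13:51756634-51756933, minus strand, the most upstream of 3 windows) were higher in iPSCs than in MEFs. Sema3c (chr5:17574566-17574865, plus strand) and Sema3a (chr5:13396534-13396833, plus strand) were lower. Ephb3 (chr16:21204545-21204844, plus strand) was higher and Ephb6 (chr6:41605261-41605560, plus strand) lower.
Sema4g: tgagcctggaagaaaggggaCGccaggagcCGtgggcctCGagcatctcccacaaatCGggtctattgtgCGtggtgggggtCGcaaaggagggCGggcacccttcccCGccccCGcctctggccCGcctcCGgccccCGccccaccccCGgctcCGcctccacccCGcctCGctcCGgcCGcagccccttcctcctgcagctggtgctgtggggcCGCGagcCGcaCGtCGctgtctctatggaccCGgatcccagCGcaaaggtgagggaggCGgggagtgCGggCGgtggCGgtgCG
Sema4d: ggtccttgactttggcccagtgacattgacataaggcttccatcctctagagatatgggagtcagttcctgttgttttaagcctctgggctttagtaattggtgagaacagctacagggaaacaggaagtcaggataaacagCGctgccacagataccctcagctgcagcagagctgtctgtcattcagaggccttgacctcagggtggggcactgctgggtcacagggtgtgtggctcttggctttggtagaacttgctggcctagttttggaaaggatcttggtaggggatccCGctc
Sema3c: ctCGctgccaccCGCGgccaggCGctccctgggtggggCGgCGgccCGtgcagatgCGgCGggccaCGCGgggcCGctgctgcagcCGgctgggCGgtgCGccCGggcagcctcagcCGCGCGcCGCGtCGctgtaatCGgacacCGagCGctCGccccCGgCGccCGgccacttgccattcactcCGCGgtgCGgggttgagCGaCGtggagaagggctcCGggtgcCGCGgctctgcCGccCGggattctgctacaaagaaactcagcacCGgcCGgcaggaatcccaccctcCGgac
Sema3a: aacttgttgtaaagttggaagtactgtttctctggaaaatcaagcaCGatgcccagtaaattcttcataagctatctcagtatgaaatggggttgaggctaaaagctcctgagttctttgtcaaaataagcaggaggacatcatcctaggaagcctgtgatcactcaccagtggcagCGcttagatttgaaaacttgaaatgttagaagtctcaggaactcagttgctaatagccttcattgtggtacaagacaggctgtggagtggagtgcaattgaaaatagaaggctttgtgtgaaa
Ephb3: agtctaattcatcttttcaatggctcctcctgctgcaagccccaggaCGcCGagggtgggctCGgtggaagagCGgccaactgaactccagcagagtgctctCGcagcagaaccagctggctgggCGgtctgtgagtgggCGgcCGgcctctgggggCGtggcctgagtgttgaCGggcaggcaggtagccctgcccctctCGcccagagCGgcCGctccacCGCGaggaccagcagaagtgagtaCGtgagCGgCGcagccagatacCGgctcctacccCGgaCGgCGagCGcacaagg
Ephb6: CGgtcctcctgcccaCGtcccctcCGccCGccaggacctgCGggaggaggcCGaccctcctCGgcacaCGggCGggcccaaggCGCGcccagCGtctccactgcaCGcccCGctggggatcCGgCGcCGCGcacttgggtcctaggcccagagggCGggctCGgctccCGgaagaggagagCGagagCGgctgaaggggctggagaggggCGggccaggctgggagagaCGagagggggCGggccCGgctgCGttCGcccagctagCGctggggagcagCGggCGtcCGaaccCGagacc

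The CpG count of these windows ran from 2 in Sema4d and Sema3a to 42 in Sema3c, with 30 in Sema4g, 23 in Ephb3 and 34 in Ephb6. The windows shown include the extremes of each side, so their spread cannot stand for the other members. By the highest window of each gene, Sema4d (3) and Sema4g (30) had the lowest and highest counts of members higher in iPSCs. Sema3a (2) and Sema3c (42) had those of the lower ones. Sema4b, the highest semaphorin of iPSCs, is not shown and had windows with 26 and 28 CpG. Of the 66 member symbols, 58 matched at least 1 window, 74 in all, and the unmatched ones were Efnb3, Ntn1, Plxna1, Plxna4, Sema3b, Sema3f, Sema6a and Slit1. The median CpG count was 19.5 over these 74 windows, 13 over 21262 windows of protein-coding genes and 7 over all 32851 windows. Over all windows the median was 10.5 for members higher in iPSCs (14 windows), 20.5 for lower ones (26 windows) and 20 for the rest (34 windows). The 14 windows belong to 7 genes, with 4 from Sema4a and 3 from Sema4d. Taking the highest window of each gene, the median was 23 for the 7 members higher in iPSCs (range 3 to 30), 23 for 23 lower ones (2 to 42) and 24 for 15 within the rule (10 to 36).

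Short motifs were also searched on both strands. The octamer ATGCAAAT, the site of POU factors such as OCT4, was in 0 of 74 member windows and in 1.74% of all windows of this length. The E-box CAGGTG, a form bound by Snail and Zeb proteins, was in 10 of 74 member windows (13.5%) and in 20.2% of all windows. It stood in 0 of the 14 windows of members higher in iPSCs, in 4 of 26 of lower ones (15.4%) and in 6 of 34 of the rest (17.6%). A match is only a string of letters, and the start used in these cells is not known from a gene table.

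**Figure D3:**
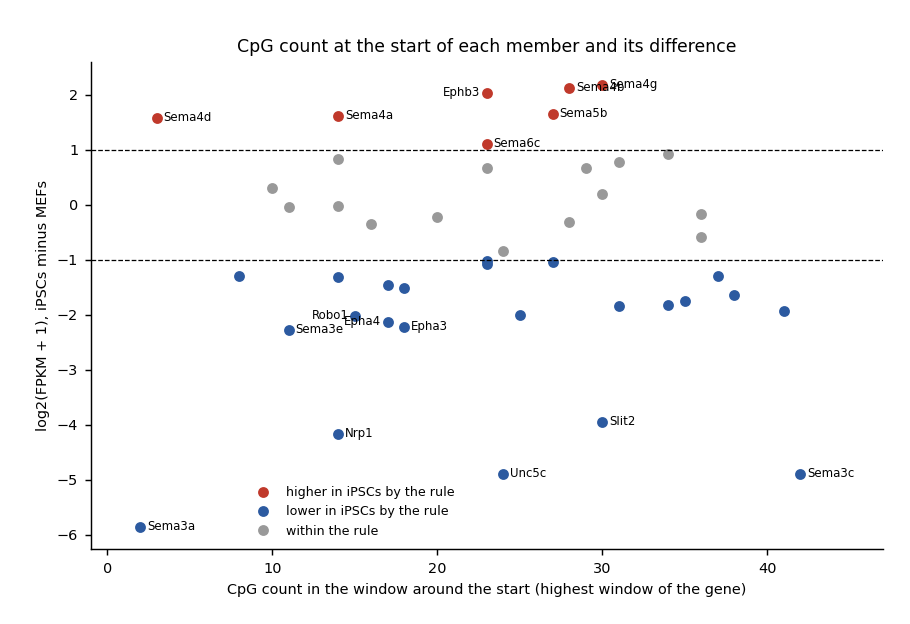
CpG count of the highest start window of each gene (horizontal) against the difference in log2(FPKM + 1), iPSCs minus MEFs (vertical), for 45 members with a window and at least 1 FPKM in either library. Red points above 1 and blue points below -1 both spread over low and high CpG counts, from 3 to 30 and from 2 to 42.

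Secreted class 3 held most semaphorin FPKM up to day 6, and the membrane-bound classes held most of it in iPSCs. The 7 class 3 rows summed to 229 in MEFs, 218 on day 3, 197 on day 6 and 8.68 FPKM in iPSCs. The 13 rows of classes 4 to 7 summed to 15.6, 19.5, 19.4 and 46.9 FPKM. Class 3 thus held 93.6% of all semaphorin FPKM in MEFs, 91.8% on day 3, 91.0% on day 6 and 15.6% in iPSCs, and class 4 held 3.16%, 3.87%, 4.57% and 57.2%. The sum over all semaphorins was 55.6 FPKM in iPSCs, against 245 FPKM in MEFs.

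All 6 class 3 members that reached 1 FPKM were lower in iPSCs than in MEFs. Sema3a (ENSMUSG00000028883), a repellent of sensory axons that binds through Nrp1, was at 63.6 in MEFs, 56.1 on day 3, 40.2 on day 6 and 0.116 FPKM in iPSCs. Its difference of -5.85 between iPSCs and MEFs was the largest of any member. Sema3c (ENSMUSG00000028780), which guides cells of the cardiac outflow tract, was at 74.1, 76.5, 81.0 and 1.54 FPKM over the same stages, a difference of -4.89. Sema3f (ENSMUSG00000034684), which binds through Nrp2, was at 57.0, 56.7, 52.4 and 1.87 FPKM, a difference of -4.34. Between day 6 and MEFs the differences of these 3 genes were -0.65, 0.13 and -0.12, all within the rule.

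The weaker class 3 members were also lower in iPSCs but to a smaller extent. Sema3e, which can bind Plxnd1 without a neuropilin, was at 16.3 in MEFs, 15.2 on day 3, 11.2 on day 6 and 2.58 FPKM in iPSCs (difference -2.27). Sema3b was at 16.3, 12.4, 10.7 and 2.39 FPKM (-2.35), and Sema3d at 1.83, 1.47, 1.17 and 0.153 FPKM (-1.29). In iPSCs the order was therefore turned, with Sema3e and Sema3b above Sema3f, Sema3c and Sema3a. Sema3e, Sema3b and Sema3d each had the smallest early value at day 6, within the rule against MEFs.

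Class 4 semaphorins were the main ones of iPSCs. Sema4b (ENSMUSG00000030539) was at 2.89 in MEFs, 3.94 on day 3, 4.38 on day 6 and 15.9 FPKM in iPSCs, a difference of 2.12 between iPSCs and MEFs. Sema4g was at 0.356, 0.2498, 0.283 and 5.18 FPKM (2.19). Before the iPSC stage Sema4g was thus under 1 FPKM and Sema4b was not. Sema4d, a ligand of Plxnb1 also known from lymphocytes, was at 0.684, 0.666, 0.459 and 4.05 FPKM (1.58). Sema4a was at 0.173, 0.133, 0.289 and 2.60 FPKM (1.62). All 4 were highest in iPSCs. Sema4c, a ligand of Plxnb2, was at 2.94, 3.42, 3.46 and 3.49 FPKM and within the rule. Sema4f was at 0.6998, 0.801, 1.01 and 0.601 FPKM.

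Classes 5 and 6 contributed less and mixed called and uncalled members. Sema5b was at 0.00407 FPKM in MEFs, listed at 0 at day 3, at 0.168 at day 6 and at 2.15 in iPSCs (1.65). Sema6c was at 2.47, 3.02, 2.71 and 6.48 FPKM over the stages (1.11), so it lay just past the rule. Sema5a at 1.66, 2.13, 2.22 and 3.24 FPKM, Sema6a at 1.44, 2.01, 1.00 and 1.49 FPKM, and Sema6b at 0.300, 0.244, 0.317 and 1.06 FPKM were within it. The lipid-anchored Sema7a was lower in iPSCs, with 1.59 in MEFs, 2.36 on day 3, 2.53 on day 6 and 0.280 FPKM in iPSCs. Its difference of -1.02 was -0.95 with upper quartiles made equal and -0.998 by median ratio, both within the rule.

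Both neuropilins were lower in iPSCs, and the pair changed order. Nrp1 (ENSMUSG00000025810), a co-receptor of class 3 semaphorins and of VEGF, was at 30.3 in MEFs, 29.0 on day 3, 39.4 on day 6 and 0.743 FPKM in iPSCs (-4.17). Nrp2 was at 6.15, 7.01, 6.84 and 1.90 FPKM (-1.30). Nrp1 held 83.1% of neuropilin FPKM in MEFs, 80.5% on day 3, 85.2% on day 6 and 28.1% in iPSCs. Nrp1 was thus highest at day 6, where Sema3a was at its lowest before the iPSC stage.

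Of 6 plexins compared, 5 were lower in iPSCs, and Plxnb2 and Plxna1 were still among the most abundant members. Their 9 rows summed to 134 in MEFs, 156 on day 3, 144 on day 6 and 58.9 FPKM in iPSCs. Plxnb2 was at 69.4, 81.5, 76.9 and 33.2 FPKM and Plxna1, a partner of neuropilins, at 39.8, 47.3, 42.4 and 17.6 FPKM. Their differences between iPSCs and MEFs, -1.04 and -1.13, passed the rule as deposited and became -0.86 and -0.96 with upper quartiles made equal, within it, and Plxnb2 was at -0.99 by median ratio. Plxna2 at 7.38, 9.92, 9.79 and 1.10 FPKM (-1.998) and Plxna3 at 8.37, 8.55, 6.61 and 2.28 FPKM (-1.52) were lower by more. Plxnd1, the receptor of Sema3e, was at 2.25, 2.74, 2.92 and 0.551 FPKM (-1.07, and -0.98 with that scaling). Plxnb1, the receptor of Sema4d, was at 6.26, 5.87, 4.37 and 3.87 FPKM and within the rule.

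**Figure D4:**
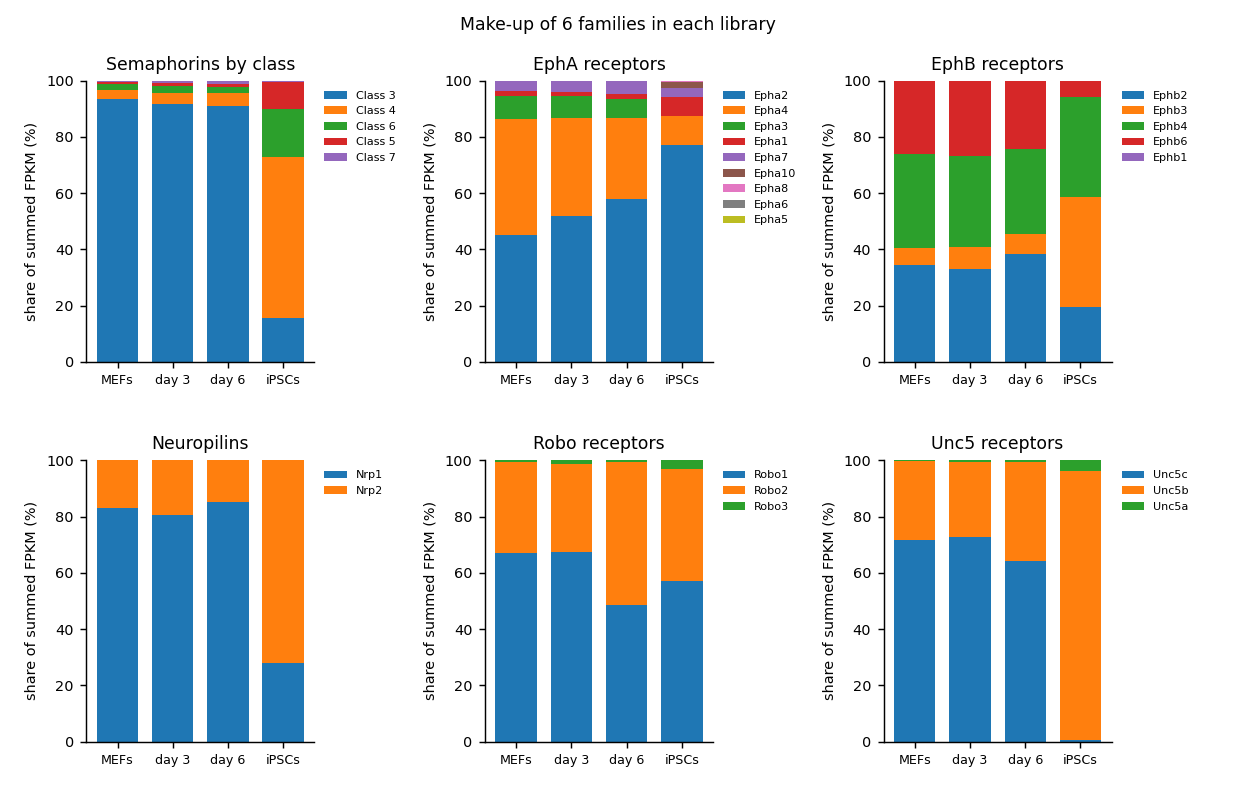
Share of the summed FPKM of a family (vertical, percent) held by each class or gene in each of the 4 libraries. In iPSCs, class 4 holds 57.2% of semaphorin FPKM, Epha2 77.0% of EphA, Ephb3 39.1% of EphB and Unc5b 95.4% of Unc5, and at day 6 Robo2 holds 51.1% of Robo.

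The 2 Slit and 2 Robo genes above 1 FPKM were lower in iPSCs, and the order of the Robo genes differed at day 6. Slit2 (ENSMUSG00000031558), a repellent of axons and the main Slit here, was at 53.7 in MEFs, 53.6 on day 3, 39.1 on day 6 and 2.57 FPKM in iPSCs (-3.94). Slit3 was at 5.02, 6.46, 6.61 and 0.586 FPKM (-1.93). Slit2 held 73.7% of Slit FPKM in iPSCs, against 91.3% in MEFs. Summed Slit FPKM was 2.16 times summed Robo FPKM in MEFs, 1.97 times on day 3, 1.66 times on day 6 and 0.531 times in iPSCs.

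Robo1 was at 18.2 in MEFs, 20.6 on day 3, 13.4 on day 6 and 3.75 FPKM in iPSCs (-2.02). Robo2, its neighbour on chromosome 16 with no protein-coding gene between them, was at 8.84, 9.62, 14.1 and 2.60 FPKM (-1.45). From day 3 to day 6 Robo1 differed by -0.59 and Robo2 by 0.51, both within the rule, which were the lowest and the second highest of the 45 rows compared, with Ntn1 highest at 0.53. The ratio of Robo1 to Robo2 was 2.06 in MEFs, 2.14 on day 3, 0.947 on day 6 and 1.44 in iPSCs. Robo2 was therefore the higher of the pair at day 6 and in no other library.

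Of 3 netrins compared, Ntn4 was lower in iPSCs than in MEFs. Ntn4, a netrin of basement membranes, was at 6.30 in MEFs, 6.83 on day 3, 5.44 on day 6 and 1.05 FPKM in iPSCs (-1.83). Ntn1, the netrin known best from commissural axons, was at 2.17, 2.59, 4.18 and 0.636 FPKM. Its difference of 0.71 between day 6 and MEFs was the highest of any member, within the rule. Against MEFs the iPSC difference was -0.95, just within the rule, and against day 6 it was -1.66, past it. Ntn3 stayed between 0.720 and 1.19 FPKM.

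Unc5c (ENSMUSG00000059921) was at 30.9 in MEFs, 32.6 on day 3, 26.1 on day 6 and 0.0679 FPKM in iPSCs (-4.90). Unc5b was at 12.2, 12.003, 14.4 and 10.8 FPKM and within the rule in every comparison. Unc5b thus held 28.3% of the sum of the pair in MEFs, 26.9% on day 3, 35.5% on day 6 and 99.4% in iPSCs. Of the other netrin receptors, Dcc was highest in iPSCs, at 0.0374 FPKM, and neogenin (Neo1) was at 30.1, 32.3, 26.0 and 7.50 FPKM (-1.87).

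Ephrin ligands were lower in iPSCs for part of the family only. Efnb2, which marks arteries and binds Ephb4, was at 14.1 in MEFs, 15.4 on day 3, 18.5 on day 6 and 3.52 FPKM in iPSCs (-1.74). Efnb1 was at 9.95, 9.78, 11.3 and 3.44 FPKM (-1.30). The main Efna5 row was at 4.27, 6.64, 6.57 and 0.702 FPKM (-1.63), and the other, whose identifier is not among current gene names, at 3.02, 4.94, 4.19 and 0.216 FPKM (-1.72). Between day 3 and MEFs the rows differed by 0.54 and 0.57, within the rule. Sequencing depth is not stated, and an estimate from the lowest values put the fewest fragments at day 3. The sources used here do not say how reads of this gene were divided between them.

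The other ephrins remained within the rule between iPSCs and MEFs. Efna1 was at 7.09 in MEFs, 7.24 on day 3, 7.20 on day 6 and 5.90 FPKM in iPSCs, and Efna4 at 7.49, 6.24, 6.203 and 7.29 FPKM. Efna3 was at 2.34, 2.25, 2.81 and 5.37 FPKM (0.93), Efna2 at 0.982, 0.825, 0.799 and 2.41 FPKM (0.78), and Efnb3 at 0.0685, 0.0652, 0.0148 and 1.08 FPKM (0.96), all within it. The difference of Efnb3 was past the rule with upper quartiles made equal (1.02) and against day 6 (1.03). With upper quartiles made equal, 9 members were higher in iPSCs than in MEFs, beside 7 as deposited, so Efnb3 was not alone in crossing. Efna1, Efna3 and Efna4 follow each other on chromosome 3 with no protein-coding gene between them, and the iPSC differences of the outer genes were -0.23 for Efna1 and -0.03 for Efna4.

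Eph receptors kept most of their summed level while the genes behind it changed. The 14 rows summed to 77.5 in MEFs, 76.8 on day 3, 73.6 on day 6 and 62.8 FPKM in iPSCs. Epha2, a receptor of epithelia that is also present in mouse embryonic stem cells, was at 20.7, 23.6, 22.3 and 26.0 FPKM and within the rule. Epha4, which binds ephrins of both types, was at 18.8, 15.8, 11.1 and 3.54 FPKM (-2.13), and Epha3 at 3.70, 3.42, 2.57 and 0.00957 FPKM (-2.22). The difference of Epha4 between day 6 and MEFs, -0.72, was the lowest of any member and within the rule. Epha2 consequently held 45.2% of EphA FPKM in MEFs, 52.0% on day 3, 58.0% on day 6 and 77.0% in iPSCs. Epha7 at 1.68, 1.80, 1.87 and 1.17 FPKM and Epha1 at 0.794, 0.685, 0.621 and 2.20 FPKM (0.84) were within the rule.

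Of the EphB receptors Ephb3 and Ephb6, Ephb6 was the higher up to day 6 and Ephb3 in iPSCs. The largest share of EphB FPKM was held by Ephb2 in MEFs (34.3%) and by Ephb3 in iPSCs (39.1%). Ephb3 (ENSMUSG00000005958), a receptor of the intestinal crypt, was at 2.01 in MEFs, 2.48 on day 3, 2.51 on day 6 and 11.3 FPKM in iPSCs (2.04). Ephb6, which lacks kinase activity, was at 8.24, 8.42, 8.59 and 1.61 FPKM (-1.82). The ratio of Ephb3 to Ephb6 was 0.244, 0.295, 0.291 and 7.04 over the stages. Ephb4 stayed between 10.1 and 10.6 FPKM in all 4 libraries, and Ephb2 at 10.9, 10.4, 13.5 and 5.62 FPKM was within the rule against MEFs (-0.84) and past it against day 6 (-1.13).

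**Figure D5:**
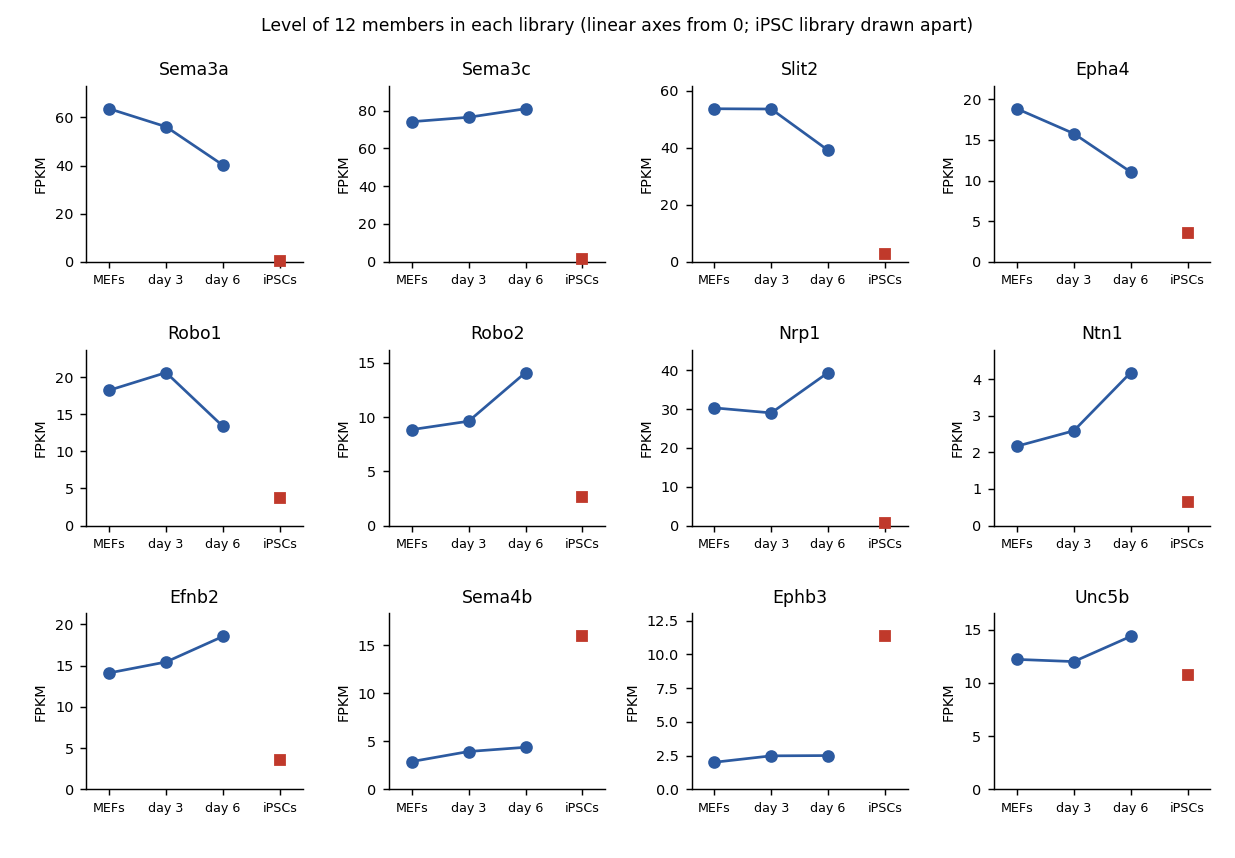
FPKM of 12 members in each library on linear axes that start at 0, with MEFs, day 3 and day 6 joined and the iPSC library as a red square. Sema3a, Slit2 and Epha4 have their smallest early values at day 6 (40.2, 39.1 and 11.1 FPKM) and Robo2, Nrp1, Ntn1 and Efnb2 their largest (14.1, 39.4, 4.18 and 18.5 FPKM), all within the rule against MEFs, and all 7 are lowest in iPSCs.

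The early differences were small and had no single direction. At day 3 the 44 compared rows ranged from -0.37 (Sema3b) to 0.57 (Efna5) against MEFs, with 27 above and 17 below their MEF value. At day 6 the 45 compared rows ranged from -0.72 (Epha4) to 0.71 (Ntn1) against MEFs, with 28 above and 17 below. Their median was 0.10, beside -0.02 over all rows, and against day 3 it was -0.01, beside -0.01. Single markers of other cell types were past the rule at day 6 against MEFs. The endothelial marker Tek was at 0.262 in MEFs, 1.22 on day 3 and 2.06 FPKM on day 6. Its difference was 1.28, with Cdh5 at or under 0.0318 FPKM in these libraries. The neuronal tubulin gene Tubb3 was at 5.62, 9.91 and 19.1 FPKM over the first 3 stages, while the neuronal marker Rbfox3 was at or under 0.132 FPKM in every library. S100b, a marker of glia and cartilage, was at 17.6, 16.1 and 7.66 FPKM over the same stages, with Sox10 at or under 0.116. The part of these cells in the early differences was not tested.

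Members that lie close together in the genome, by gene order on GRCm38, are given as pairs. Sema3d and Sema3a are adjacent on chromosome 5 and Sema3e follows after 3 protein-coding genes, and all 3 were lower in iPSCs than in MEFs. Sema3b and Sema3f, with 3 genes between them on chromosome 9, were both lower. Ephb2 and Epha8 lie 3 genes apart on chromosome 4, and Epha8 was highest in iPSCs, at 0.184 FPKM. The differences of the adjacent Sema3d and Sema3a were -1.29 and -5.85.

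Genes that act with these cues and receptors were counted from 4 lists. Of 61 listed, 60 were found and 50 compared between iPSCs and MEFs. In iPSCs 8 were higher and 21 lower, beside 21.1% and 25.0% of all rows, and the median difference was -0.69, beside -0.05. On the semaphorin and plexin list 3 were higher and 11 lower of 17, beside the same shares of all rows. Mical2, an oxidoreductase of actin, was at 39.2 in MEFs, 47.6 on day 3, 35.2 on day 6 and 1.81 FPKM in iPSCs (-3.84). Dpysl3, a member of the collapsin response mediators, was at 105, 90.1, 76.1 and 7.13 FPKM (-3.71), and Rnd1, a GTPase that binds plexins, at 19.4, 20.7, 18.3 and 1.21 FPKM (-3.21). The collapsin response mediators split, since Dpysl2 and Dpysl4 were also lower while Crmp1 and Dpysl5 were higher. The latter were at 2.41 and 3.17 FPKM in iPSCs, against 0.0509 and 0.0514 FPKM in MEFs. The Mical genes split too, with Mical1 also lower (-1.86). Mical3 was higher, at 4.26 FPKM in MEFs and 9.65 in iPSCs (1.02).

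On the other lists the counts were smaller. Of 14 compared on the Eph and ephrin list, 3 were higher (Grip1, Pick1 and Vav2) and 4 lower (Adam10, Rasa1, Sdcbp and Sipa1l1), which is near the 21.1% and 25.0% of all rows. Of 13 compared on the Slit, Robo and netrin list, 0 were higher and 6 lower, beside these shares. Of 6 compared on the VEGF list, 2 were higher (Flt1 and Pgf) and 0 lower, and Vegfa, a ligand of neuropilin complexes, was within the rule at 42.5, 39.6, 39.9 and 80.4 FPKM over the stages. Among MEFs, day 3 and day 6, 1 gene of the 4 lists was past the rule in any comparison. It was Nrcam, a cell adhesion partner of neuropilin, with 0.761, 1.07 and 2.86 FPKM over these stages. Its difference between day 6 and MEFs was 1.13. This makes 1 of 46 compared, beside 0.770% higher, 0.584% lower and 1.35% in either direction of all rows. At day 3 against MEFs 0 of 47 were past the rule, and at day 6 against day 3 0 of 46. The shares of all rows in either direction were 0.221% and 0.855%.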

How the data were processed

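The deposited table gives 1 FPKM value per gene and library, per the file headers. The long RNA libraries used an NEBNext Ultra kit after ribosomal RNA removal, per the labels' protocols. Per the submitters' processing notes, HISAT2, Cufflinks and the build mm9 were used, and their versions and roles were not listed. The sources used here do not state gene models, strand setting or pooling, so reads of overlapping genes may not be separated. Sequencing depth is not stated. The most frequent ratio of values under 0.06 FPKM put the number of fragments relative to MEFs at 0.637 for day 3, 1.04 for day 6 and 1.01 for iPSCs, and columns summed to between 438130 and 486609 FPKM. A 0 may be a failed estimate.

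Members were matched by symbol in Python 3.11.15 with pandas 2.3.3. Differences are on log2(FPKM + 1), which understates changes of low genes. Sums and shares take every member row. The naming rule took members past the rule of size and the highest of each family, and other members above 1 FPKM were added after their values were seen. Partner genes were named from a difference of 3, or past the rule before the iPSC stage, and the others named were added likewise. The name pattern uses no values, but the families and the lists were chosen with earlier results of these data known. Alternatives were pseudocounts of 0.1 and 5, no minimum or a minimum of 5 FPKM, a difference of 2, and 2 rescalings. The 4 small RNA samples were not analysed here.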

Additional observations from a re-analysis of the deposited data

How the results depend on the processing

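No paired analysis was possible because the 4 stages are single libraries, so no replicate could be left out either. Of 32 alternatives to the counts above 0, 21 were within 1.5 times the reported count and 11 were not. The 21 include all under both rescalings, with no minimum and without the second Efna5 row, an alternative chosen after seeing the data. Between iPSCs and MEFs, 7 members were higher and 27 lower, which became 2 and 13 at a pseudocount of 5 and 3 and 11 at a difference of 2. The 7 became 4 at a minimum of 5 FPKM and 12 at a pseudocount of 0.1. Between iPSCs and day 6, 8 were higher and 28 lower, which became 2 and 17 at a pseudocount of 5 and 1 and 12 at a difference of 2, and the 8 became 4 at a minimum of 5 FPKM. The cause was not tested beyond what each setting removes. The counts of 0 before the iPSC stage were 0 under every alternative run, several of which could not raise a count. Rescaling to the same upper quartile moved the median over all rows from -0.05 to 0.13 in iPSCs against MEFs, and the counts were then 9 higher and 23 lower. Of 588 values in the iPSC comparisons under alternatives, 107 changed their side of the rule, and 0 turned their sign where called. These values cover 42 of the named rows. Other named members near the rule, such as Efna3 and Epha1, are not among them. By the estimated number of fragments, low values were least precise at day 3, and no call has a replicate check.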
